A study of Mus musculus with 20 samples.

Results

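Voltage-gated calcium channels turn a change of membrane voltage into calcium entry. RNA for 10 of their subunits was followed in brain tissue of aged mice after stroke. The 10 genes were taken by symbol and matched to the Ensembl identifiers of the count tables, which list 46078 genes. All 10 were found, and all 10 passed the filter on low counts in every comparison. They are 8 pore-forming subunits (Cacna1a, Cacna1b, Cacna1c, Cacna1d, Cacna1e, Cacna1g, Cacna1h and Cacna1i) and 2 accessory α2δ subunits (Cacna2d1 and Cacna2d3).

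Polyadenylated RNA was sequenced from 20 brain samples of wild-type C57BL/6J mice aged 18 months, 7 weeks after DH stroke (occlusion of the distal middle cerebral artery followed by hypoxia). Mice were injected under the skin with PBS vehicle or with 4 g/kg hydroxypropyl-β-cyclodextrin (HPBCD), a ring of sugar units that takes up cholesterol. Injections were given 3 times a week over 6 weeks, starting at week 1. Peri-infarct tissue, dissected after the infarct itself was removed, and the matching contralateral tissue were collected, which gave 4 groups of 5 libraries: vehicle peri-infarct, vehicle contralateral, HPBCD peri-infarct and HPBCD contralateral. The contralateral tissue came from the same stroked brains, so no group was free of stroke and hypoxia. No transcript in the tables reports the treatment directly, and whether the treatment labels of the peri-infarct libraries are right is in doubt and was not settled here. The sign of every treatment difference in peri-infarct tissue rests on those labels. So do the sizes of the regional differences within each treatment, the signs of some of them, and the size and sign of the interaction. The treatment differences in contralateral tissue do not rest on those labels. Values are given for the libraries as they are labelled.

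A channel is built around a single large α1 subunit, which forms the pore and sets the type of current. P/Q-type (Cacna1a) and N-type (Cacna1b) channels sit at presynaptic terminals and trigger transmitter release, and R-type channels (Cacna1e) are found at terminals and dendrites. L-type channels (Cacna1c, Cacna1d) couple depolarization to signalling in the cell body and dendrites, and T-type channels (Cacna1g, Cacna1h, Cacna1i) open near the resting potential and shape burst firing. The α2δ proteins carry channels to the membrane and to the synapse, and Cacna2d1 is the binding site of gabapentin.

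The genes are spread over many chromosomes (GRCm38 coordinates). Cacna1a (ENSMUSG00000034656) lies at chr8:84388440-84640246, Cacna1b (ENSMUSG00000004113) at chr2:24603887-24763152 and Cacna1e (ENSMUSG00000004110) at chr1:154390731-154884501. Cacna1c (ENSMUSG00000051331) lies at chr6:118587240-119196418. Cacna1d (ENSMUSG00000015968) and Cacna2d3 (ENSMUSG00000021991) share a chromosome, at chr14:30039939-30491455 and chr14:28904943-29721864. Cacna1g (ENSMUSG00000020866) lies at chr11:94408391-94474198, Cacna1h (ENSMUSG00000024112) at chr17:25374285-25433783, Cacna1i (ENSMUSG00000022416) at chr15:80287238-80398279 and Cacna2d1 (ENSMUSG00000040118) at chr5:15934691-16374511. Exons of Cacna1a, Cacna1d and Cacna1h overlap genes on the opposite strand (Gm16183 over 435 bp, Chdh over 589 bp and Tpsg1 over 158 bp), and since the strand option of the counting was not stated, reads in those stretches cannot be assigned to a single gene.

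Promoters are shown for 3 members that were lower in peri-infarct than in contralateral tissue of HPBCD mice (below), to let their sequence be compared. The 250 bases before the start annotated by RefSeq (GRCm38.p6) are printed 5′ to 3′ on the gene's strand. Capitals mark the GC box GGGCGG and the CRE core TGACG, searched on both strands.
Cacna1i, chr15:80286988-80287237, plus strand: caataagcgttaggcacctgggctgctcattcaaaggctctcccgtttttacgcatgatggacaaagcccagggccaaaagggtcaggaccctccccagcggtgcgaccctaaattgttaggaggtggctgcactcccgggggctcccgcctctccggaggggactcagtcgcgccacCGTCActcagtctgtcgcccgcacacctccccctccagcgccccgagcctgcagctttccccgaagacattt
Cacna2d1, chr5:15934441-15934690, plus strand: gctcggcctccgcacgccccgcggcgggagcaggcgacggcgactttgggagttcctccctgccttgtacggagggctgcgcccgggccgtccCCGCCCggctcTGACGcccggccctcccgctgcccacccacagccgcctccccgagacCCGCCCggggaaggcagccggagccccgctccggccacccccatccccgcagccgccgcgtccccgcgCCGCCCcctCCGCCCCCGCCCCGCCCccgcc
Cacna1b, chr2:24763153-24763402, minus strand: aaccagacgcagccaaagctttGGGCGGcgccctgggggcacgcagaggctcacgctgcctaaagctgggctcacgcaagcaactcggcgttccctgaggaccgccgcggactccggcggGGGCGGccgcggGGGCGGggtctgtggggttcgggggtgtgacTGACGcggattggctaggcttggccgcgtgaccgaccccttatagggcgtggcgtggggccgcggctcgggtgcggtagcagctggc
The Cacna1i window had a GC content of 62.4%, no GC box and 1 CRE core. The Cacna2d1 window had 82.4% GC with 6 GC boxes, overlapping copies counted separately, and the Cacna1b window had 72% GC with 3. Each of these also held 1 CRE core. Over the 32851 promoter windows of the same table, 32.7% held a GC box, 17.8% held a CRE core and the median GC content was 52.4%. Such a match describes the letters of the window only. RefSeq entries were matched for 7 of the 10 members, and Cacna1a, Cacna1g and Cacna1h had none. The other matched members, Cacna1c, Cacna1d, Cacna1e and Cacna2d3, are not printed.

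Libraries held 14445021 to 22171627 gene counts (median 19008532). The lowest count of any member in any library was 179 (Cacna1h), well above the floor of 3 counts (0.135 to 0.208 CPM, reads set to one common library size). Markers of neurons were present in every group: 9 neuronal markers summed to 4239 to 5284 CPM (peri-infarct) and 4805 to 5343 CPM (contralateral) in vehicle mice, and to 2459 to 3697 CPM and 5181 to 5605 CPM in HPBCD mice. Markers of regions below or beside the cortex set some libraries apart. Striatal markers (7 genes) summed to 3274 CPM in vehicle contralateral replicate 1 against 186 to 273 in the other 4 libraries of that group. Hippocampal markers were high in vehicle peri-infarct replicate 1 (113 CPM) and HPBCD peri-infarct replicate 2 (199.9 CPM), and choroid plexus markers in HPBCD peri-infarct replicate 3 (622 CPM) and HPBCD contralateral replicate 3 (606 CPM). These 5 libraries were also left out together as an alternative chosen after their marker sums were seen.

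All 10 members were expressed in every library. Levels between genes were compared per length, as CPM per kilobase of merged exons (FPKM). Cacna2d1 had the highest level in each of the 4 groups, at 17.9 ± 1.48 FPKM beside the infarct and 19.0 ± 4.04 on the other side in vehicle mice, and at 11.97 ± 4.04 and 20.1 ± 1.08 in HPBCD mice (mean ± SD, n = 5 each). Cacna1a came next in all 4 groups, at 14.7 ± 0.904 FPKM in vehicle contralateral tissue. In vehicle contralateral tissue the ranges of Cacna2d1 and Cacna1a overlapped, and Cacna1a lay clear of Cacna1i (9.57 ± 0.976 FPKM). There Cacna1i, Cacna1b, Cacna2d3 and Cacna1e followed, with overlapping ranges between neighbours. The range of Cacna1e (8.21 ± 1.55 FPKM) did not reach that of Cacna1g (4.87 ± 0.766 FPKM), below which came Cacna1c, Cacna1h and Cacna1d. Cacna1d, an L-type pore, was the lowest member in 3 groups, and Cacna1h was the lowest in HPBCD contralateral tissue at 1.98 ± 0.416 FPKM. Divided by the longest transcript instead of the merged exons, Cacna2d1 stayed first in all 4 groups, but in both peri-infarct groups Cacna2d3 and Cacna1e moved above Cacna1a. The values per kilobase were 17.2, 16.8 and 15.3 in vehicle and 18.5, 12.4 and 12.3 in HPBCD mice, in that order.

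**Figure D1:**
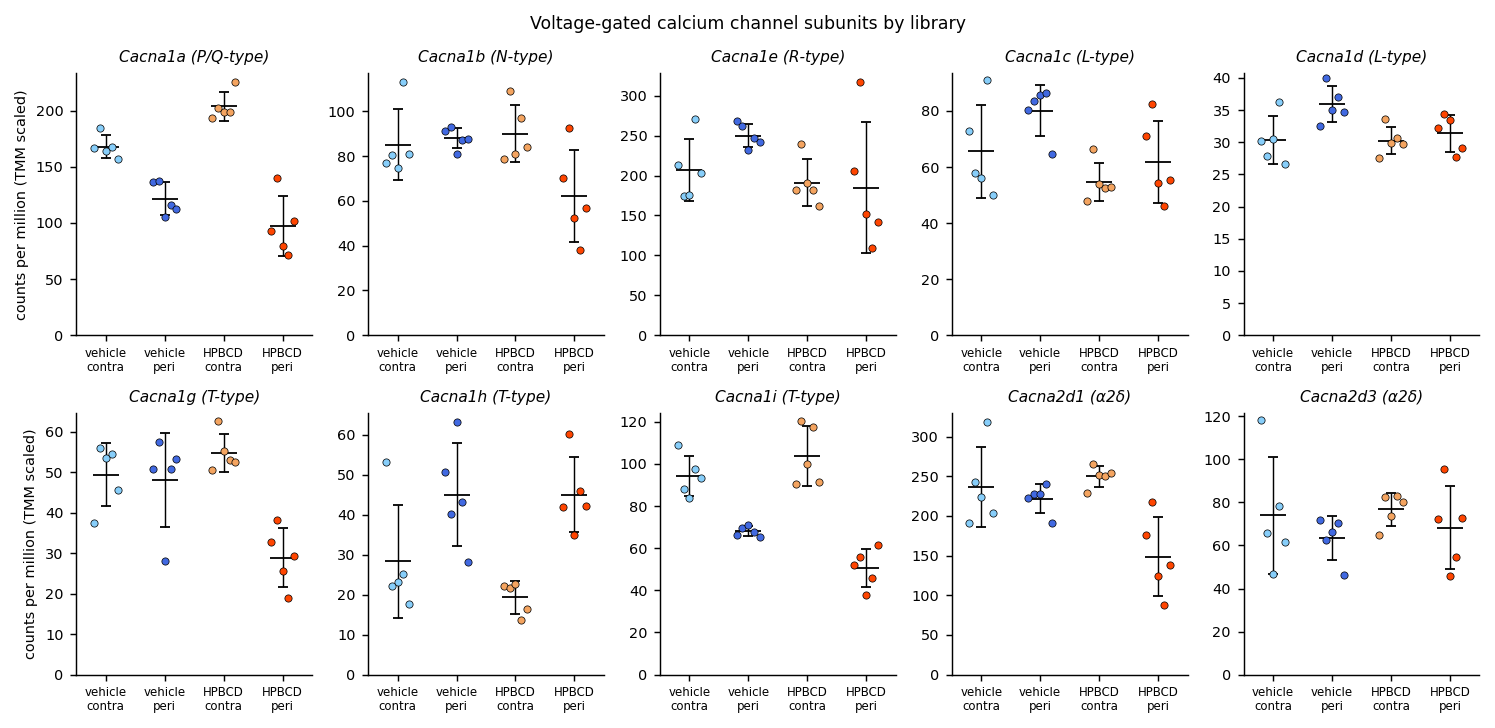
CPM (TMM-scaled, vertical axis from 0) of each of the 10 subunits in the 20 libraries, by group; points are libraries, bars the mean ± SD of 5. Cacna1a and Cacna1i lay lower in peri-infarct than in contralateral libraries in both treatments with no overlap, while Cacna1h lay higher in HPBCD peri-infarct libraries (34.9 to 60.2 CPM) than in HPBCD contralateral libraries (13.6 to 22.7 CPM).

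The first comparison asked how tissue beside the infarct differed from the opposite side in mice given vehicle. Of the 10 members, 2 fell and 8 did not pass the test. The P/Q-type pore Cacna1a and the T-type pore Cacna1i were the members that fell, and no N-, R- or L-type pore and no α2δ subunit passed. Among all 15801 genes tested, 20.2% were called in either direction, 9.70% lower and 10.5% higher. Replicates did not overlap, with peri-infarct lower, for these same 2 members and for 6.70% of all genes. The median difference of the 10 members was -0.008 on the log2 scale, beside 0.015 over all genes.

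Cacna1a was at 137, 137, 105, 116 and 112 CPM in vehicle peri-infarct replicates 1 to 5 and at 167, 185, 164, 167 and 157 CPM in vehicle contralateral replicates 1 to 5. All 5 peri-infarct values lay below the lowest contralateral value. The fitted difference was -0.48 ± 0.09 (log2 fold change ± SE, edgeR adjusted p = 0.00485). Cacna1i was at 66.2, 69.8, 71.2, 67.6 and 65.4 CPM in peri-infarct and at 109, 87.9, 84.0, 97.6 and 93.4 CPM in contralateral replicates 1 to 5. Its peri-infarct values were close together and again below every contralateral value, with a difference of -0.48 ± 0.08 (edgeR adjusted p = 0.00264). Paired by the identifier in the deposited names, Cacna1a was lower beside the infarct in 5 of 5 animals (log2 differences of -0.64 to -0.29). Cacna1i was lower in 5 of 5 (-0.72 to -0.24). Since the groups did not overlap, any pairing gives 5 of 5, so these counts add no further support. Both calls held in all 18 alternatives run.

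Summed neuronal markers differed little between these groups, with 2 of 9 marker genes called lower, a median difference of -0.172 and overlapping ranges. Other cell types differed more: 8 of 8 reactive astrocyte markers (median 2.88) and 10 of 10 microglia and macrophage markers (median 1.49) were called higher, and 3 of 8 inhibitory neuron markers were called lower, with all 8 fitted lower (median -0.401). Inhibitory neuron markers summed to 726 to 969 CPM in peri-infarct against 997 to 1285 CPM in contralateral libraries, without overlap. The part of these cell types in the differences of Cacna1a and Cacna1i was not tested. Expressed per 1000 CPM of summed neuronal markers, Cacna1a was at 25.9 ± 1.36 in vehicle peri-infarct against 33.1 ± 2.54 in vehicle contralateral libraries, a ratio of 0.785, and Cacna1i at 14.6 ± 1.47 against 18.6 ± 2.33, a ratio of 0.788. For both, the ranges still did not overlap. In bulk tissue, fewer cells of a type and less RNA per cell cannot be told apart.

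The other pores of vehicle mice did not pass. Cacna1b differed by 0.04 (95% interval -0.199 to 0.273) and Cacna1g by -0.05 (-0.428 to 0.322). Cacna1c, Cacna1d and Cacna1e had positive differences of 0.28, 0.23 and 0.26 (edgeR adjusted p = 0.226, 0.0984 and 0.13), and the α2δ genes had negative ones of -0.10 for Cacna2d1 and -0.23 for Cacna2d3 (edgeR adjusted p = 0.613 and 0.474). Without vehicle contralateral replicate 4, which was the highest of its group for 5 of the 10 members, Cacna1c, Cacna1d and Cacna1e passed at 0.42, 0.30 and 0.37 (edgeR adjusted p = 0.0297, 0.019 and 0.00979).

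Cacna1h, a T-type pore, had the largest positive difference among the members in vehicle mice. It was at 50.6, 40.2, 63.1, 43.2 and 28.1 CPM in peri-infarct replicates 1 to 5. In contralateral replicate 1 it was at 53.2 CPM, and in contralateral replicates 2 to 5 at 22.3, 23.2, 25.3 and 17.6 CPM. That single high contralateral library is the one with the high striatal marker sum. The difference was 0.66 ± 0.29 (edgeR adjusted p = 0.133) and did not pass. Without vehicle contralateral replicate 1 it was 1.03 (edgeR adjusted p = 0.00887), and with the 5 libraries apart in region markers left out 0.99 (edgeR adjusted p = 0.0196). With the animal as a block it was 0.72 (edgeR adjusted p = 0.0335).

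The same comparison was then made in HPBCD mice, where 6 of the 10 members passed the test, 5 lower and 1 higher in peri-infarct tissue. Cacna1a, Cacna1b, Cacna1g, Cacna1i and Cacna2d1 fell, and Cacna1h rose. The L-type pores Cacna1c and Cacna1d, the R-type pore Cacna1e and Cacna2d3 did not pass. Of 16047 genes tested, 54.6% were called, 24.3% lower and 30.3% higher, so a call is common in this comparison. Replicates did not overlap for 18.3% of all genes in the lower and 24.3% in the higher direction, and for 4 members (Cacna1a, Cacna1g, Cacna1i and Cacna2d1) and 1 member (Cacna1h). The median difference was -0.344 over the members and 0.032 over all genes.

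Cacna1a was at 93.2, 140.4, 79.1, 71.0 and 102 CPM in HPBCD peri-infarct replicates 1 to 5, and at 193, 202, 199, 199 and 225 CPM in HPBCD contralateral replicates 1 to 5. Even the highest peri-infarct library, replicate 2, stayed below every contralateral one. Its difference was -1.06 ± 0.17 (edgeR adjusted p = 0.000156). Cacna1b, the N-type pore, was at 70.4, 92.4, 52.6, 37.9 and 56.7 CPM against 78.8, 109, 80.9, 97.2 and 84.2 CPM. Here peri-infarct replicate 2 fell within the contralateral range, and the difference was -0.53 ± 0.20 (edgeR adjusted p = 0.0422). This call was lost when HPBCD peri-infarct replicate 3 or 5, or HPBCD contralateral replicate 2, 4 or 5, was left out, with edgeR adjusted p up to 0.0975. Cacna1e, the R-type pore, was at 205, 317, 151, 109 and 142 CPM against 182, 239.8, 190.1, 182 and 161 CPM. Replicate 2 was the highest and replicate 4 the lowest of all 10 libraries, and the difference was -0.03 (95% interval -0.571 to 0.505).

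The 3 T-type pores moved in different directions. Cacna1g was at 32.7, 38.1, 25.6, 18.9 and 29.2 CPM in HPBCD peri-infarct replicates 1 to 5 and at 50.6, 62.5, 55.2, 52.9 and 52.4 CPM in contralateral replicates 1 to 5, without overlap. It differed by -0.91 ± 0.16 (edgeR adjusted p = 0.000371). Cacna1i was at 51.9, 55.7, 37.9, 46.0 and 61.6 CPM against 90.4, 120.3, 99.97, 118 and 91.2 CPM, again without overlap. Its difference was -1.03 ± 0.14 (edgeR adjusted p = 4.07e-05). Cacna1h went the other way, at 42.0, 60.2, 34.9, 45.9 and 42.1 CPM against 22.2, 21.8, 22.7, 13.6 and 16.5 CPM. Every peri-infarct library was above every contralateral one, and the difference was 1.22 ± 0.18 (edgeR adjusted p = 7.98e-05). Paired by those names, Cacna1h was higher beside the infarct in 5 of 5 HPBCD mice (0.62 to 1.74). Without overlap between the groups, any pairing gives that count. In vehicle mice Cacna1h was higher in 4 of 5 (-0.07 to 1.44).

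The α2δ genes differed from each other. Cacna2d1 was at 176, 218, 124, 87.2 and 138 CPM in HPBCD peri-infarct replicates 1 to 5, below its contralateral values of 228, 265, 252, 250.5 and 254 CPM, with a difference of -0.74 ± 0.20 (edgeR adjusted p = 0.00721). Cacna2d3 ranged from 46.0 to 95.7 CPM in peri-infarct and from 64.8 to 82.9 CPM in contralateral libraries, a difference of -0.16 (95% interval -0.537 to 0.216). The L-type pores had differences of 0.19 for Cacna1c (-0.152 to 0.525) and 0.06 for Cacna1d (-0.143 to 0.254). The calls of Cacna1a, Cacna1g, Cacna1h, Cacna1i and Cacna2d1 held in all 18 alternatives, among them the fit without the 5 libraries apart in region markers.

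Neuronal markers moved with these results, since 9 of 9 were called lower in HPBCD peri-infarct tissue (median -0.838), and 7 of 7 oligodendrocyte markers, 10 of 10 microglia and macrophage markers and 8 of 8 reactive astrocyte markers were called higher. Markers of excitatory neurons (6 of 7, median -1.06) and inhibitory neurons (7 of 8, median -1.01) were called lower, and those of fibroblasts (5 of 5, median 4.05), ependyma (4 of 4, median 5.85) and lymphocytes (4 of 4 tested, median 3.36) higher. Per 1000 CPM of summed neuronal markers, Cacna1b stood at 18.8 ± 3.75 beside the infarct and 16.8 ± 1.90 on the other side in HPBCD mice, a ratio of 1.12. The ratio was 0.966 for Cacna2d1 and 0.866 for Cacna1g, both with overlapping ranges. For Cacna1a it was 0.784 and for Cacna1i 0.818, and their ranges overlapped as well. Relative to the same markers, the L-type pores had ratios of 1.87 for Cacna1c and 1.74 for Cacna1d, without overlap. Cacna1h had a ratio of 3.91, also without overlap. The divisor itself was lower in peri-infarct libraries, so a gene with unchanged CPM also gets a raised ratio. In mean CPM, Cacna1c was at 61.9 in peri-infarct against 54.7 in contralateral libraries, and Cacna1d at 31.4 against 30.25. Neither L-type pore passed the test in CPM. The part of these cell types in the bulk differences was not tested.

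Striatal markers moved with Cacna1h. They summed to 628 to 1937 CPM in HPBCD peri-infarct against 197 to 238 CPM in HPBCD contralateral libraries, and 7 of 7 were called higher. In vehicle mice they summed to 316 to 1853 CPM in peri-infarct libraries. The 9 libraries with striatal sums of at most 273 CPM had Cacna1h at 13.6 to 25.3 CPM, and the 11 libraries with sums of at least 316 CPM had it at 28.1 to 63.1 CPM. The first set was contralateral only, and the second was every peri-infarct library plus vehicle contralateral replicate 1. Apart from that single library, this split is the split by region and cannot separate striatal content from region. The order within the second set was not the same, since HPBCD peri-infarct replicate 2 had 60.2 CPM of Cacna1h at a striatal sum of 628 CPM. The part of striatal tissue in the Cacna1h difference was not tested.

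**Figure D2:**
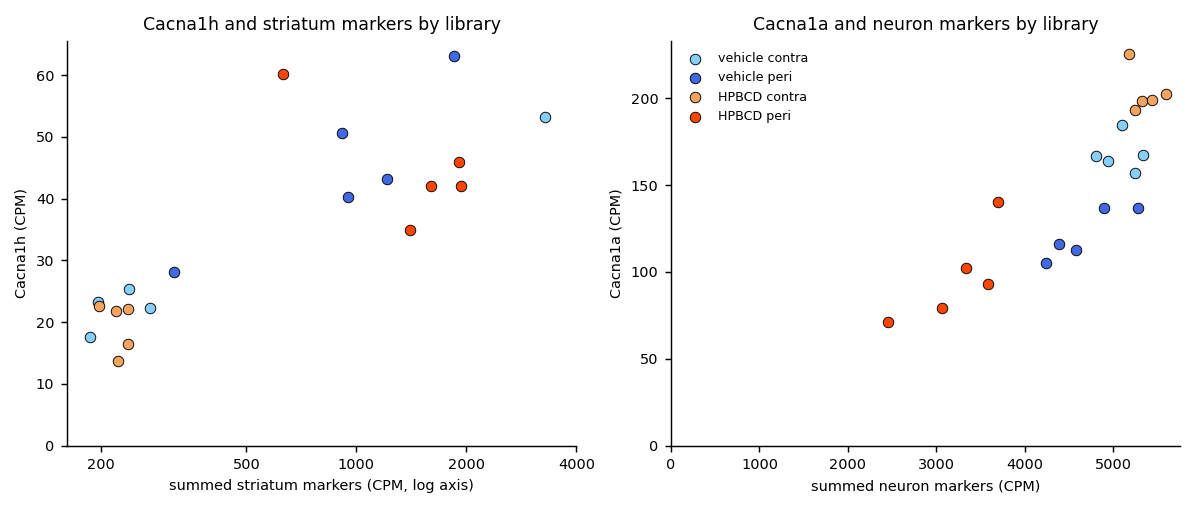
Left, Cacna1h (CPM) against 7 summed striatal markers (CPM, log axis); right, Cacna1a (CPM) against 9 summed neuronal markers (CPM); points are the 20 libraries, coloured by group. Vehicle contralateral replicate 1 sits with the peri-infarct libraries on the left (53.2 CPM of Cacna1h at 3274 CPM of striatal markers), and HPBCD peri-infarct replicate 4 has the lowest value on both axes on the right (71.0 CPM of Cacna1a at 2459 CPM of neuronal markers).

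Peri-infarct libraries labelled HPBCD were next set against those labelled vehicle. Of the 10 members, 2 fell in libraries labelled HPBCD, the T-type pores Cacna1g and Cacna1i, and 0 rose. Of 16224 genes, 21.4% were called in either direction and 9.00% were called lower. Replicates did not overlap in the lower direction for Cacna1i and for 5.98% of all genes. Fitted differences were negative for 9 of 10 members, with a median of -0.403 beside 0.014 over all genes.

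Cacna1i went from 65.4 to 71.2 CPM in vehicle to 37.9 to 61.6 CPM in libraries labelled HPBCD, a difference of -0.43 ± 0.12 (edgeR adjusted p = 0.028). Cacna1g lay at 28.0 CPM in vehicle replicate 3 and at 50.8 to 57.4 CPM in the other 4 vehicle libraries, against 18.9 to 38.1 CPM, a difference of -0.74 ± 0.21 (edgeR adjusted p = 0.0343). That low vehicle library was the one that overlapped the libraries labelled HPBCD. Neither call was stable: Cacna1i lost it without replicate 1 or 2 of the vehicle or replicate 3 or 4 of the HPBCD peri-infarct libraries (edgeR adjusted p = 0.0559 to 0.065), and Cacna1g without vehicle replicate 1, 2, 4 or 5 or HPBCD replicate 3, 4 or 5 of that tissue (0.0632 to 0.0861). With the 5 libraries apart in region markers left out, 0 members and 0 of 16495 genes were called, with differences of -0.38 for Cacna1i and -0.83 for Cacna1g.

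The remaining members did not pass in edgeR. Cacna2d1 differed by -0.58 (95% interval -1.03 to -0.130; edgeR adjusted p = 0.0627; DESeq2 adjusted p = 0.0302), Cacna1b by -0.51 (-0.932 to -0.084; edgeR adjusted p = 0.0785) and Cacna1e by -0.43 (-0.963 to 0.093). For Cacna1a the difference was -0.33 (-0.702 to 0.051), for Cacna1c -0.37 (-0.713 to -0.035) and for Cacna1d -0.20 (-0.389 to -0.006). Cacna1h had nearly equal means in peri-infarct tissue, 45.0 ± 12.95 CPM in vehicle and 45.0 ± 9.35 CPM in HPBCD libraries (SD, n = 5), with an interval of -0.449 to 0.439. Cacna2d3 was the member with a positive difference, 0.10 (-0.312 to 0.519). HPBCD peri-infarct replicate 2 was the highest of its group for 9 of the 10 members, and replicate 4 was the lowest for 7. Without replicate 2, 7 members were called lower (Cacna1a, Cacna1b, Cacna1c, Cacna1e, Cacna1g, Cacna1i and Cacna2d1), and the share of all genes called was 32.5% in that fit against 21.4% with it. Neuronal markers were lower in the same comparison, with 9 of 9 called. Markers called higher included 5 of 5 of fibroblasts (median 2.62), 2 of 2 tested of erythrocytes (median 2.08), 2 of 4 of choroid plexus (median 2.26), 3 of 4 of ependyma, 3 of 7 of mural cells, 4 of 8 of reactive astrocytes and 2 of 7 each of astrocytes and oligodendrocytes. Among single markers, the synaptic vesicle gene Syn1 was at -0.80 in libraries labelled HPBCD (edgeR adjusted p = 0.0171). The glial genes Gfap, Serpina3n and Cd68 were at 1.03, 0.98 and 0.91 and did not pass (edgeR adjusted p = 0.0552, 0.144 and 0.0895). These 4 were chosen after their values were seen, because they bear on the direction between the labels. The part of these cell types in the differences was not tested.

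In contralateral tissue 0 of the 10 members were called by edgeR between treatments, and 0 of 15469 genes (0% in either direction) passed, with 1224 genes at an unadjusted p under 0.05 and a smallest adjusted p of 0.236. DESeq2 called 53 genes and limma voom 0. Cacna1a was the 1 member of those 53 genes. It was at 193 to 225 CPM in libraries labelled HPBCD and at 157 to 185 CPM in vehicle libraries, so that every HPBCD library was above every vehicle library, as for 0.957% of all genes. Its difference was 0.27 ± 0.07 (edgeR adjusted p = 0.427; DESeq2 adjusted p = 0.0313). Over the 18 alternatives its adjusted p ranged from 0.0313 to 0.808. The other 9 members had edgeR adjusted p-values of 0.625 to 0.985. Among them, Cacna1h had a difference of -0.56 (95% interval -1.12 to 0.012) that was -0.26 with the 5 libraries apart in region markers left out.

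Whether the difference between regions itself differed between treatments was tested as an interaction over all 20 libraries, which are the same libraries as in the comparisons above. Of the 10 members, 3 were called, all lower: Cacna1g at -0.88 ± 0.25 (edgeR adjusted p = 0.0334), Cacna1i at -0.57 ± 0.16 (edgeR adjusted p = 0.0324) and Cacna1a at -0.60 ± 0.19 (edgeR adjusted p = 0.0461). Of 16758 genes, 9.41% were called and 4.38% were called lower. For Cacna1g the region difference was -0.05 in vehicle mice and -0.91 in HPBCD mice, while for Cacna1a and Cacna1i a difference of -0.48 in vehicle mice stood against -1.06 and -1.03 in HPBCD mice. Cacna2d1 (-0.66, edgeR adjusted p = 0.0867), Cacna1b (-0.59, edgeR adjusted p = 0.113) and Cacna1h (0.55, edgeR adjusted p = 0.32) did not pass. With the animal as a block Cacna2d1 was called at -0.74 (edgeR adjusted p = 0.0467). An interaction is about the treatment difference in peri-infarct tissue less that in contralateral tissue, which was -0.33 against 0.27 for Cacna1a, -0.74 against 0.14 for Cacna1g and -0.43 against 0.13 for Cacna1i. If the doubted peri-infarct labels were exchanged, the first of each pair would change sign, so that for Cacna1a the pair would nearly cancel.

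These interaction calls were not stable, while the differences kept their sign and ran from -0.74 to -0.51 for Cacna1a, -1.03 to -0.76 for Cacna1g and -0.64 to -0.47 for Cacna1i over 27 alternatives. The call of Cacna1a was kept in 6 of 27 alternatives, that of Cacna1g in 17 and that of Cacna1i in 18, with adjusted p-values of at most 0.0949, 0.0928 and 0.0771. Cacna1i lost its call without vehicle peri-infarct replicate 1 or 2, vehicle contralateral replicate 2 or 3, HPBCD peri-infarct replicate 3 or 4 or HPBCD contralateral replicate 2 or 4. Cacna1g lost it without vehicle peri-infarct replicate 1, 2 or 5, vehicle contralateral replicate 1 or 5, HPBCD peri-infarct replicate 3 or 4 or HPBCD contralateral replicate 2 or 4. Among the 20 fits with 1 library left out, Cacna1a lost its call in 18 and kept it in 2, those without replicate 3 of the vehicle or replicate 2 of the HPBCD peri-infarct libraries. With every library kept, it also lost the call with upper quartile factors (edgeR adjusted p = 0.0516) and without a filter on low counts (0.054). With the 5 libraries apart in region markers left out, 0 members and 150 genes were called, with differences of -0.86 for Cacna1g, -0.56 for Cacna1i and -0.68 for Cacna1a. Of 9 neuronal markers, 7 were called lower in the interaction, and 4 of 4 ependyma (median 4.31), 4 of 5 fibroblast (median 2.62), 3 of 7 oligodendrocyte and 3 of 8 reactive astrocyte markers were called higher. Their part in the interaction of the members was not tested.

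**Figure D3:**
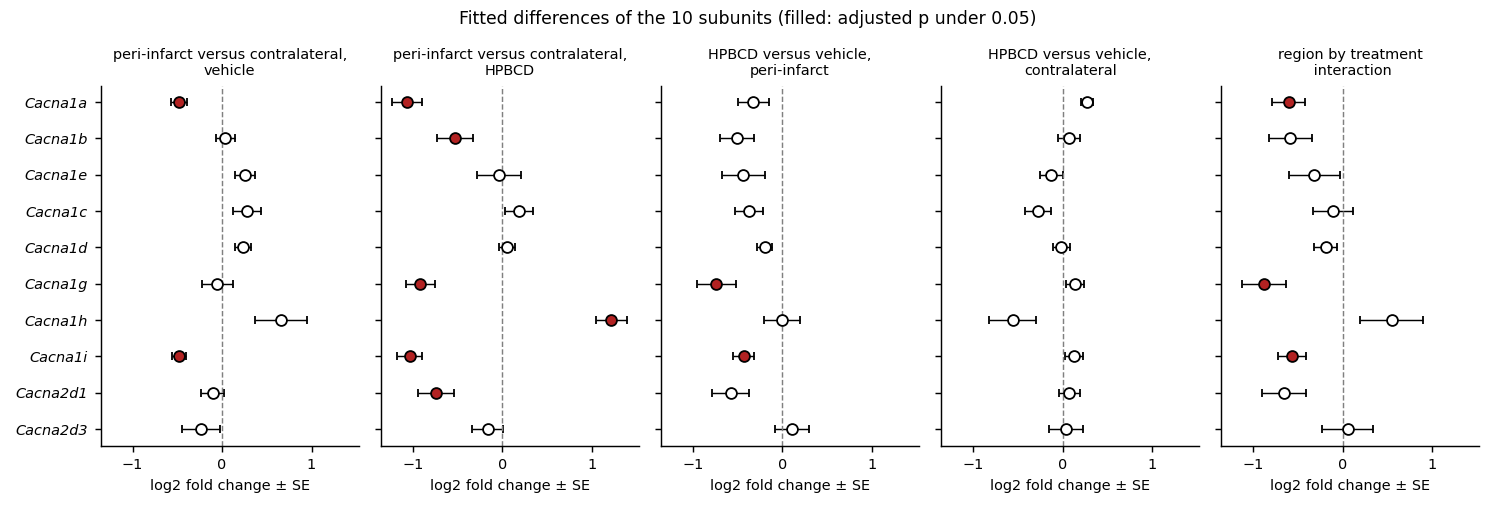
Log2 fold change ± SE (edgeR) of the 10 subunits in the 4 comparisons and the interaction; filled points have an adjusted p-value under 0.05. Cacna1h rose beside the infarct in HPBCD mice (1.22) while Cacna1a (-1.06), Cacna1i (-1.03), Cacna1g (-0.91), Cacna2d1 (-0.74) and Cacna1b (-0.53) fell, and no point is filled for contralateral tissue.

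The make-up of the pore-forming RNA was described as the share of each type in the summed FPKM of the 8 pores. That sum was 52.3 ± 3.05 FPKM (peri-infarct) and 54.3 ± 5.01 FPKM (contralateral) in vehicle mice, and 40.1 ± 10.2 and 57.4 ± 4.41 FPKM in HPBCD mice (SD, n = 5). P/Q-type RNA made up 20.3% ± 1.36 of it in vehicle peri-infarct against 27.2% ± 2.66 in vehicle contralateral tissue, and 21.2% ± 1.39 against 31.2% ± 2.95 in HPBCD mice. In both treatments the ranges over 5 libraries did not overlap. The L-type share was 12.7% ± 0.935 against 10.1% ± 1.03 in vehicle and 13.8% ± 1.52 against 8.67% ± 0.237 in HPBCD mice. The N-type share was between 15.3% and 17.0% in the 4 group means. The T-type share was 31.1% ± 1.15 (peri-infarct) and 32.0% ± 2.39 (contralateral) in vehicle mice and 32.0% ± 4.01 and 31.2% ± 1.30 in HPBCD mice.

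Within the T-type total the Cacna1h share was larger, and the Cacna1i share smaller, beside the infarct. By merged exons Cacna1i stayed above Cacna1h in all 4 group means, but their ranges overlapped in both peri-infarct groups. In HPBCD peri-infarct libraries these were 10.01% to 16.18% for Cacna1i and 10.23% to 15.68% for Cacna1h. Divided by the longest transcript, Cacna1h lay above Cacna1i in that group (5.468 against 5.176 CPM per kilobase) and below it in the others. Cacna1h was 11.7% ± 2.23 of pore RNA beside the infarct and 3.47% ± 0.783 on the other side in HPBCD mice, and Cacna1i was 13.2% ± 2.64 against 18.3% ± 1.54. Cacna1g was 7.11% ± 0.639 against 9.41% ± 0.270, so that it lay below Cacna1h beside the infarct and above it on the other side. In vehicle mice the Cacna1h share was 8.83% ± 2.66 against 5.29% ± 2.44, the Cacna1i share 13.2% ± 0.872 against 17.7% ± 1.45 and the Cacna1g share 9.04% ± 2.04 against 9.03% ± 1.65. The R-type share of Cacna1e was 19.0% ± 0.516 against 15.1% ± 1.69 in vehicle and 17.7% ± 3.34 against 13.2% ± 1.22 in HPBCD mice. Shares add up to a fixed total, so they do not vary independently, and they were not tested.

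**Figure D4:**
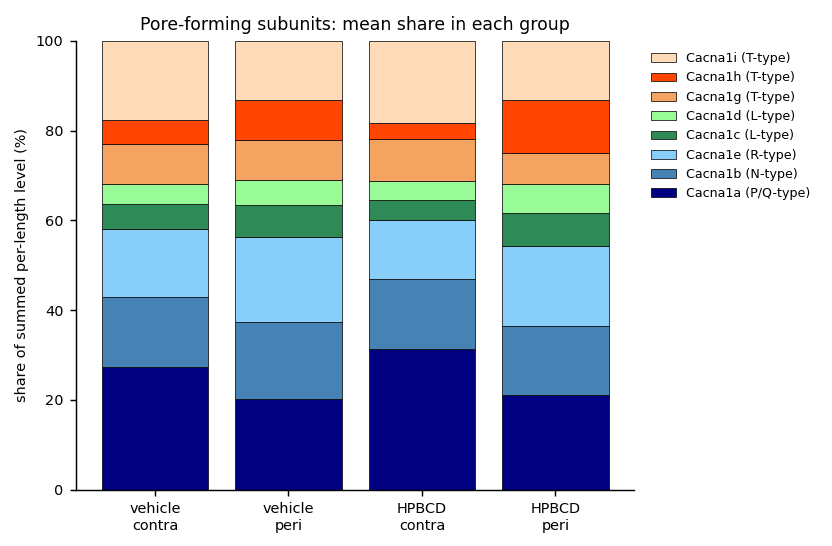
Mean share (%) of each of the 8 pore-forming subunits in their summed per-length level, for the 4 groups of 5 libraries; each stacked bar runs from 0 to 100%. The dark blue Cacna1a block is smaller in both peri-infarct bars (20.3% and 21.2%) than in the contralateral bars (27.2% and 31.2%), and the orange-red Cacna1h block is larger (8.83% and 11.7% against 5.29% and 3.47%).

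The other subunits of the family were followed as a list of 16 genes, of which 13 passed the filter (Cacna1f, Cacna1s and Cacng1 did not). In vehicle mice 3 of 13 fell and 1 rose beside the infarct, and in HPBCD mice 5 fell and 2 rose. Over all genes 9.70% fell and 10.5% rose in vehicle mice, and 24.3% fell and 30.3% rose in HPBCD mice, so that 7 of 13 called in HPBCD mice is near the 54.6% of all genes. Cacnb4, a β subunit that binds the α1 subunit inside the cell, had log2 differences of -0.68 in vehicle and -1.46 in HPBCD mice (adjusted p by edgeR of 0.00146 and 1.3e-06), and its interaction was called at -0.80. Cacng2, or stargazin, which is known mainly as a partner of AMPA receptors, was at -0.55 and -1.29, both called. Cacng5 rose by 0.75 in vehicle and by 0.86 in HPBCD mice. Cacng4 rose by 1.17 in HPBCD mice and had a difference of 0.64 in vehicle mice (edgeR adjusted p = 0.194), where contralateral replicate 1, the library with the high striatal marker sum, was at 63.5 CPM against 20.9 to 26.0 CPM in the other 4. Between treatments in peri-infarct tissue 6 of 13 fell in libraries labelled HPBCD and 0 rose, with Cacng6, Cacng3 and Cacng2 at -1.45, -0.78 and -0.67, beside 9.00% of all genes called lower. None of these calls was left without the 5 libraries apart in region markers, where 0 of 16495 genes passed.

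Proteins that hold or tune the channels were listed next. Of 14 channel regulators, 5 fell and 4 rose beside the infarct in vehicle mice, and of 13 tested in HPBCD mice 7 fell and 4 rose, beside 20.2% and 54.6% of all genes called in either direction. Rem2, a small GTPase that inhibits these channels, rose by 2.95 (log2) in HPBCD mice (edgeR adjusted p = 4.37e-07), whereas Cabp1, a calmodulin-like calcium sensor, and Stac2, an adaptor of L-type channels, were called at -2.46 and -2.20. In vehicle mice Cabp1 was called at -1.37 and Stac2 at -1.40, while Rem2 was at 0.55 and did not pass (edgeR adjusted p = 0.66). Of 11 partners at the release site, 4 fell in vehicle mice and 10 in HPBCD mice, and 0 rose in either, beside 9.70% and 24.3% of all genes called lower. Syt2, a fast calcium sensor of release but not the only one in this list, was called at -2.07 in vehicle and -2.51 in HPBCD mice. Snap25, a SNARE protein, was called at -0.93 and -1.84. Between treatments in peri-infarct tissue, 7 of the 11 partners fell in libraries labelled HPBCD, led by Stx1a at -0.99, beside 9.00% of all genes. These calls too were all lost without the 5 libraries apart in region markers, and over all genes the number called fell from 3471 to as few as 823 with 1 library left out (HPBCD peri-infarct replicate 3).

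Calcium entering through the channels is removed by pumps and exchangers or joined by release from stores. Of 17 such genes, 3 fell and 1 rose in vehicle mice, and 5 fell and 4 rose in HPBCD mice, beside 20.2% and 54.6% of all genes called in those comparisons. Atp2b2, a plasma membrane calcium pump, was called at -0.76 and -1.47, with an interaction of -0.72 (edgeR adjusted p = 0.0139). Ryr3, a calcium release channel of the endoplasmic reticulum, rose by 2.34 in HPBCD mice. In vehicle mice Ryr3 was at 0.77 and did not pass (edgeR adjusted p = 0.262). Itpr2, an inositol trisphosphate receptor, rose by 0.63 in vehicle and by 0.97 in HPBCD mice. In contralateral tissue 0 genes of these 4 lists were called by edgeR between treatments.

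Some genes outside the family had patterns close to those of the members over the 20 libraries. Among 11784 other genes with a mean of at least 5 CPM, the highest Pearson r of log2 CPM with Cacna1a was that of Hapln4 (0.98), a link protein of perineuronal nets. Cacna2d1 was most like Gria3 (0.978), an AMPA receptor subunit, and Cacna1b most like Tmem178b (0.97). Cacna1e was most like Pcdh1 (0.966), Cacna1i most like Camkk2 (0.964), a calmodulin-dependent kinase kinase, and Cacna1g most like Herc3 (0.958). For Cacna1h the closest gene was Necab2 (0.947), a neuronal calcium-binding protein, and for Cacna2d3, Cacna1c and Cacna1d it was Ccng2 (0.917), Fam171a1 (0.912) and Ikzf4 (0.9). These values describe libraries that share their region, their treatment and their cell make-up.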

How the data were processed

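RNA of 20 dissected brain samples (4 groups of 5) was measured by stranded, paired-end mRNA sequencing. The authors trimmed reads with Trimmomatic 0.32, aligned them to GRCm38 with STAR 2.5.2b and counted them per gene with htseq-count, and they deposited raw counts, 1 table per sample. The annotation release and the strand option were not stated. Groups and replicate numbers come from the sample titles. Libraries came from separate mice within a group. Peri-infarct and contralateral libraries with the same identifier in the deposited names were taken as 1 mouse, and the pairing rests on those names. Deviations of libraries paired in this way from their group means correlated with a mean r of 0.056 in vehicle and 0.119 in HPBCD mice. Matching vehicle to HPBCD mice by replicate number alone gave means of 0.115 (peri-infarct) and -0.015 (contralateral). These values therefore neither show nor exclude the pairing.

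Here symbols, lengths and coordinates were taken from GENCODE M21 (GRCm38). The 5 lines per table that name no gene were left out. Among all read pairs of a table, 4.39% to 9.503% had no feature, 3.941% to 8.03% were ambiguous and 16.581% to 24.298% were not aligned uniquely. The highest no-feature and ambiguous shares were both in HPBCD contralateral replicate 4, which also had the fewest gene counts. The next highest shares were 5.86% and 4.16%. Counts were tested over all genes in edgeR 4.0.16 (glmQLFit and glmQLFTest in R 4.3.3, TMM factors, filterByExpr), with Benjamini-Hochberg adjustment and a threshold of 0.05. Fits held the 10 libraries compared, or all 20 for the interaction. The SE is the size of the log2 fold change divided by the square root of F, and 95% intervals use the t quantile at edgeR's total degrees of freedom. CPM uses TMM factors from 1 fit of all 20 libraries. The fits were tested on simulated data. Alternatives were DESeq2 1.42.0, limma 3.58.1 voom with quality weights, RLE and upper quartile factors, no filter on low counts, all groups in 1 fit, a replicate block, leaving out each library, and leaving out together the 5 libraries whose striatal, hippocampal or choroid plexus marker sum was over 3 times the next highest of their group, the last chosen after seeing the data.

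The members and the gene lists were chosen with earlier results of these data known. All members are named. From other lists the called genes with the 3 largest changes per comparison could be named, and for likeness the gene with the highest r (log2 CPM, prior count of 2).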

Additional observations from a re-analysis of the deposited data

Results flagged for a closer look

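Single libraries lay far from the other 4 of their group for 5 of the 40 combinations of member and group, and chance alone gives about 1 in 20. Cacna1h was at 53.2 CPM in vehicle contralateral replicate 1, against 17.6 to 25.3 CPM in the other 4. Cacna1b was at 113 CPM in vehicle contralateral replicate 4, against 74.5 to 80.8 CPM. Cacna1a was at 225 CPM in HPBCD contralateral replicate 5, against 193 to 202 CPM. Cacna1c was at 64.5 CPM in vehicle peri-infarct replicate 5, against 80.5 to 86.2 CPM. Cacna1g was at 28.0 CPM in vehicle peri-infarct replicate 3, against 50.8 to 57.4 CPM.

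The difference between regions differed between the treatments for Cacna1a (interaction of -0.60 on the log2 scale), Cacna1g (-0.88) and Cacna1i (-0.57), by the edgeR test over all 20 libraries. These calls were kept in 6, 17 and 18 of 27 alternatives, and none was kept with the 5 libraries apart in region markers left out. Their size and sign rest on the peri-infarct treatment labels, which are in doubt.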

How the results depend on the processing

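For the 13 calls of single members, 7 of 101 values under other settings and 51 of 160 with 1 library left out lost the call, and of the values that were not called 21 of 289 and 13 of 440 gained one in the same direction. The calls of Cacna1a and Cacna1i in vehicle mice, and of Cacna1a, Cacna1g, Cacna1h, Cacna1i and Cacna2d1 between regions in HPBCD mice, were kept throughout. Limma voom called 6, 7 and 6 members instead of 2 (vehicle regions), 2 (treatments, peri-infarct) and 3 (interaction), and 5065, 6012 and 4110 genes instead of 3195, 3471 and 1577. DESeq2 called 1 member and 53 genes between treatments in contralateral tissue, where edgeR called 0 of each, and 2504 genes in the interaction. All groups in 1 fit gave 4 members between treatments in peri-infarct tissue, with 29.7% of all genes called instead of 21.4%, and DESeq2 called Cacna2d1 there as well. Without a filter on low counts 2 genes were called in contralateral tissue. With the 5 libraries apart in region markers left out, 0 members and 0 genes were called between treatments in peri-infarct tissue, and 0 members and 150 genes in the interaction. With 1 library left out, member counts were 2 to 5 (highest without vehicle contralateral replicate 4) and 5 to 7 for the regions in vehicle and HPBCD mice. They were 0 to 7 between treatments in peri-infarct tissue (0 without vehicle peri-infarct replicate 1 or 2 or HPBCD peri-infarct replicate 3 or 4, 7 without HPBCD peri-infarct replicate 2), 0 in contralateral tissue and 0 to 5 in the interaction (0 also without HPBCD contralateral replicate 2 or 4). Gene counts were 2000 to 3920, 8043 to 9382, 823 to 5339, 0 and 529 to 3121. The cause was not tested.

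With the animal as a replicate block, 3, 6 and 4 members were called (vehicle regions, HPBCD regions, interaction), among 3053, 8860 and 1830 genes, and the block added Cacna1h and Cacna2d1 and changed no other call. Between treatments, where numbers are shared but animals are not, the block gave 4 members in peri-infarct tissue (Cacna1b and Cacna2d1 added; 27.0% of all genes called), and 0 members and 1 gene in contralateral tissue. Same-number libraries of different treatments had r of -0.022 to 0.293 in peri-infarct and -0.225 to 0.144 in contralateral tissue.

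Signs turned only for members that were not called. Cacna1d between regions in HPBCD mice was -0.020 without the filter and -0.042 without the 5 libraries. Between treatments in peri-infarct tissue Cacna2d3 was -0.013 with voom, and Cacna1h was 0.015 with upper quartile factors and 0.022 with the block. In contralateral tissue Cacna1d was 0.068 with voom. The interaction of Cacna2d3 was -0.26 with voom, -0.032 with the block and -0.17 without the 5 libraries. With 1 library left out, vehicle regions gave -0.13 to 0.11 for Cacna1g, -0.155 to 0.029 for Cacna2d1 and -0.35 to 0.0115 for Cacna2d3, and HPBCD regions gave -0.34 to 0.084 for Cacna1e. Between treatments Cacna1h (-0.14 to 0.15) and Cacna2d3 (-0.060 to 0.22) turned in peri-infarct tissue, and Cacna1b (-0.0072 to 0.19), Cacna1d (-0.055 to 0.060) and Cacna2d3 (-0.086 to 0.28) in contralateral tissue. The Cacna2d3 interaction ran from -0.18 to 0.18. At 179 or more counts per member and library, depth was not near the floor of 3 counts.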
